A study of Mus musculus with 10 samples.

Results

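Mitochondrial ribosomal protein genes, named Mrpl for the large and Mrps for the small subunit, were examined in mouse kidneys with and without dietary rilmenidine. They were taken as every protein-coding gene of the count table whose GENCODE symbol was Mrpl or Mrps followed by a number, which gave 77 of 43629 listed genes, 48 of the large and 29 of the small subunit. The mitochondrial ribosome translates the few respiratory chain proteins that mitochondrial DNA encodes. Its RNAs also come from mitochondrial DNA, whereas its proteins are encoded in the nucleus, made on cytosolic ribosomes and imported, so both genomes have to supply parts of one particle. Kidney tubules, the proximal tubule and thick ascending limb above all, are rich in mitochondria because they move salt and solutes against gradients.

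The study asked whether effects of rilmenidine, an imidazoline receptor agonist prescribed against hypertension, are also seen in mammalian tissue. Rilmenidine at 10 ppm in the diet was given to 4 male UM-HET3 mice for 1 month from the age of 3 months, and 6 littermate males received the same diet without the drug. All 10 animals were 4 months old and carried no engineered allele. UM-HET3 is a stock bred from several inbred strains, in which every animal has its own genotype, and the kidneys were labelled as biological replicates. These were bulk tissue libraries, in which fewer cells of a type and less RNA per cell cannot be told apart.

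The libraries held 863605 to 2559118 counts in the control group and 1813465 to 3232063 counts in the rilmenidine group. Although the extraction text names liver, every library held the kidney genes Slc34a1 (5478 to 20224 counts), Kap (28005 to 170342 counts) and Umod (1293 to 6361 counts), while Alb stayed at 0 to 20 and Apoa1 at 0 to 4 counts. The nuclear RNA Malat1 stood at 1200 to 2209 CPM (counts scaled to a common library total) in control kidneys 1, 3, 4 and 5, but at 285 to 390 CPM in control kidneys 2 and 6 and all 4 rilmenidine kidneys. Control kidneys 1, 3, 4 and 5 were also the 4 shallowest libraries. The main counts, the medians and the genes with the smallest p are therefore also given without these 4 kidneys.

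The genes are spread over 17 chromosomes, and none lies on X or Y. RefSeq start sites (GRCm38.p6) were found for 68 of the 77 genes, with 74 windows from 250 bases before to 50 bases after the start. The upstream parts of 4 windows are printed below as examples, 5′ to 3′ on the strand of the gene. These genes had an unadjusted p under 0.05 (given further on) and hold motifs that were searched for. Mrps7, Mrpl36, Mrpl10 and Mrpl21 met both conditions too and are not printed. Capitals mark matches to the ETS motif CCGGAAG, the NRF1 core TGCGCA or, on the opposite strand, the YY1 motif AAGATGGC, whose reverse complement is GCCATCTT. These name families of transcription factors known for their sites at genes of mitochondrial proteins.
Mrpl34, chr8:71464776-71464925, plus strand: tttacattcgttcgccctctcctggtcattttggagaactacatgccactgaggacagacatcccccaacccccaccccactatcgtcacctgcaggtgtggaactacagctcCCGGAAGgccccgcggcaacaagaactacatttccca
Mrpl43, chr19:45006443-45006592, minus strand: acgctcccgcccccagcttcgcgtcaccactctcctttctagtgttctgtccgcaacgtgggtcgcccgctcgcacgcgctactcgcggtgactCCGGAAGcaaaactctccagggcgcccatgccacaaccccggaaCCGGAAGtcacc
Mrpl45, chr11:97315566-97315715, plus strand: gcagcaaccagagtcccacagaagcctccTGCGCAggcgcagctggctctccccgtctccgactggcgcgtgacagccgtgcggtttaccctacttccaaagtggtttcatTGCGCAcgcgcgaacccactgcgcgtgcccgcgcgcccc
Mrps12, chr7:28741822-28742071, minus strand: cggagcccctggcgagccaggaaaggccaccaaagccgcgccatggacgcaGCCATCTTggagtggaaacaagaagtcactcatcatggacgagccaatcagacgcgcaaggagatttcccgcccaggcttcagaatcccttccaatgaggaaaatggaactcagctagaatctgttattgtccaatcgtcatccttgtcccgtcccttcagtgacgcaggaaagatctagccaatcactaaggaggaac

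In Mrpl34 the ETS match began 37 bases before the start, and Mrpl43 held ETS matches 56 and 12 bases before it. Mrpl45 had the NRF1 core at 121 and 39 bases before the start, and the YY1 match of Mrps12 lay 199 bases before it. Mrps12 also held an ETS match 1 base after the start, outside the printed part. With both strands searched over the full windows, the ETS motif was found in 33.8% of the mitochondrial ribosomal protein windows, in 17.9% of 9895 windows of tested protein-coding genes and in 8.86% of all 32851 windows. The NRF1 core was found in 29.7%, 13.9% and 7.76% of the same windows. The YY1 motif was found in 16.2%, 4.82% and 2.75%. In contrast, the TATA box (TATAAA) was found in 6.76%, 7.21% and 13.6%, and CCAAT in 39.2%, 36.8% and 37.4%. The median GC content of the windows was 58.8% for the mitochondrial ribosomal protein genes, 61.0% for tested genes and 52.7% for all windows. By subunit, 14 of 47 large and 11 of 27 small subunit windows held the ETS motif, 12 and 10 the NRF1 core, and 6 and 6 the YY1 motif. Among the 11 windows of genes with an unadjusted p under 0.05, the ETS motif was in 4, the NRF1 core in 4 and the YY1 motif in 3. A match describes the letters only and is no measure of binding.

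Of the 77 genes, 70 had 6 or more reads in 7 or more of the 10 kidneys and were tested, 46 of the large and 24 of the small subunit. Their raw counts ran from 1 to 594 per kidney, with a median of 82. The 7 others had few or no counts. Mrpl53, a protein of the stalk, and Mrps23 had 0 counts in all 10 libraries. Over all libraries together that allows a level of up to 0.155 CPM, and in the shallowest library alone up to 3.47 CPM (3 counts, counting error only). Mrps34 had 0 to 1 count, Mrpl23 0 to 2, Mrps18b 0 to 5, Mrps36 1 to 13 and Mrps33 2 to 17 counts. The transcripts of 4 of these 7 are nearly repeated elsewhere in the genome, so that the counting could have split or dropped their reads. Mrpl23 was identical over 540 bases to Mrpl23-ps1, Mrps18b 99.8% identical over 417 bases to Gm13552, Mrps33 99.7% identical over 321 bases to Gm5776, and Mrps36 99.3% identical over 306 bases to Mrps36-ps1. The exons of 2 more overlapped another gene on the same strand, Mrpl53 with Gm42688 over 695 bases and Mrps34 with Nme3 over 763 bases. Gm42688 itself had 0 to 1 count per kidney and Nme3 had 0 counts in every kidney. How the counting handled such reads was not tested, and the CPM limits given above do not cover reads that it dropped.

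Across the 10 kidneys, most mitochondrial ribosomal protein genes lay slightly higher with rilmenidine, and none passed the adjusted test. Of the 70 tested genes, 66 (94.3%) had a log2 fold change above 0, whereas 50.3% of all 10055 tested genes did. Their median log2 fold change was 0.23 (1.17-fold), against 0.00206 over all tested genes, and the range was -0.22 to 0.49. At an unadjusted p under 0.05, 11 of the 70 were higher (15.7%) and 0 were lower, while 4.43% of all tested genes were higher and 6.13% were lower (445 and 616 genes, or 257 and 834 with scaling by library size alone, where the 70 gave 6 and 0). With edgeR's quasi-likelihood test and Benjamini-Hochberg adjustment 0 of the 70 passed 0.05, the smallest adjusted p being 0.303, and 0 of the 70 passed with DESeq2 or with edgeR's likelihood ratio test. Over all 10055 genes 0 (0%) passed with the quasi-likelihood test, 60 with DESeq2 and 44 with the likelihood ratio test. Without control kidneys 1, 3, 4 and 5, 46 of 72 tested genes (63.9%) were above 0, the median was 0.07, 0 were higher and 1 was lower at an unadjusted p under 0.05 (Mrps36, at -1.33 on few counts, named after its value was seen), when 52.1% of all tested genes were above 0, 1.57% were higher and 1.65% were lower. Leaving out 1 kidney at a time gave 17 higher genes without control kidney 2 or control kidney 6, 7 without control kidney 3, 4 or 5 or without rilmenidine kidney 3 or 4, and 5 without rilmenidine kidney 1. Over all tested genes, 6.03% and 6.44% were higher without control kidneys 2 and 6, and 3.56%, 3.17% and 3.07% without control kidneys 3, 4 and 5. Without rilmenidine kidney 1 it was 308 genes (3.02%), and without rilmenidine kidneys 3 and 4 it was 306 and 406 genes, beside 445 genes over all 10 kidneys.

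**Figure D1:**
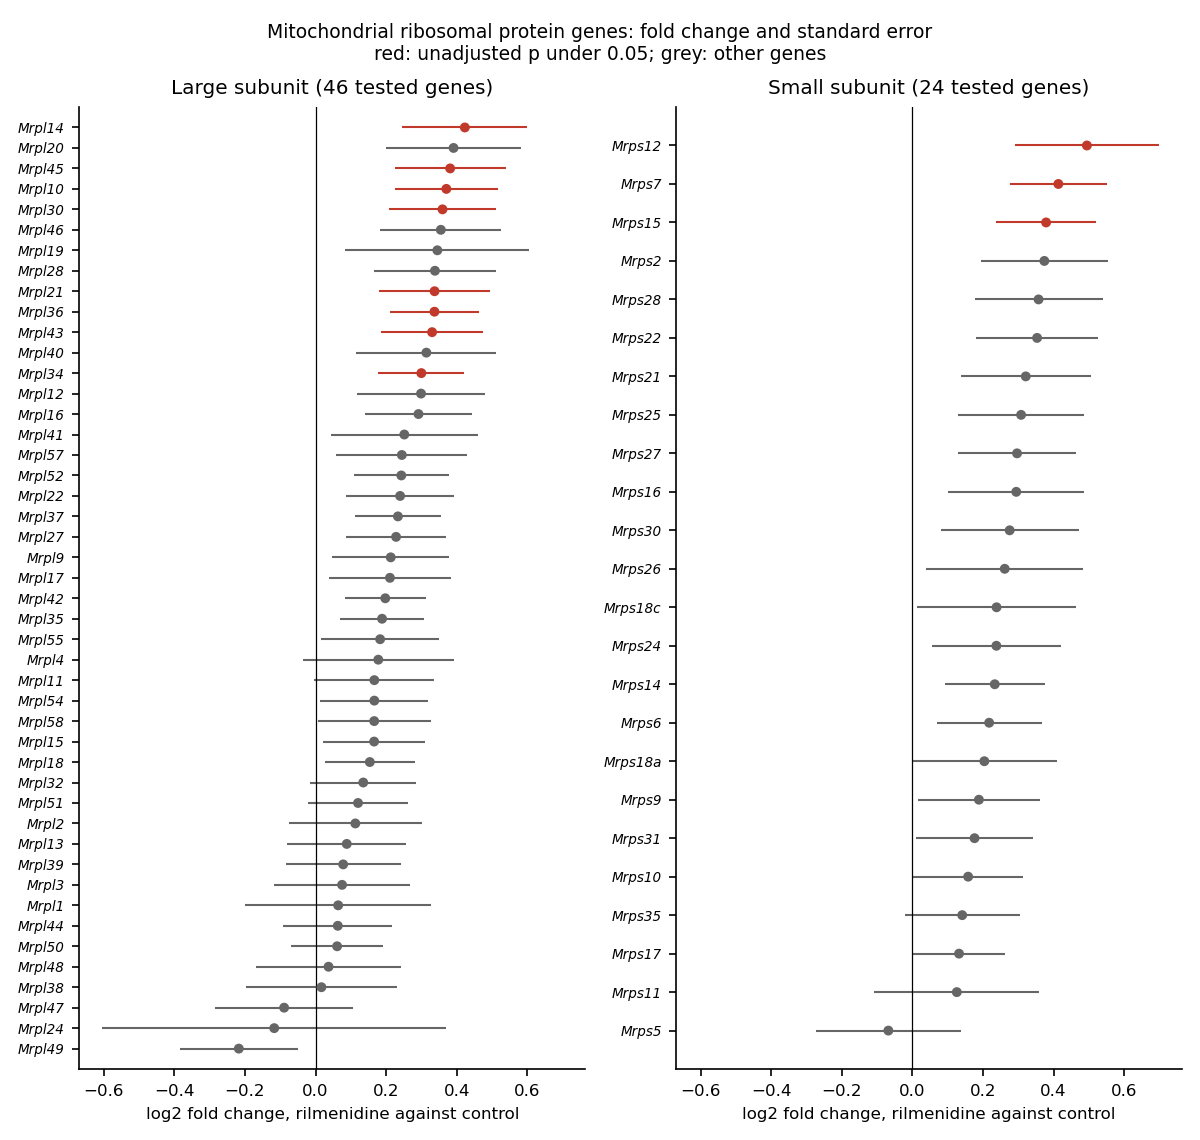
Log2 fold change of each tested mitochondrial ribosomal protein gene, rilmenidine against control, for 46 large (left) and 24 small (right) subunit genes. Points are edgeR estimates from 6 control and 4 rilmenidine kidneys, bars are 1 standard error, and red marks the 11 genes with an unadjusted p under 0.05. All but 4 points lie above 0, and the quartiles of the 70 values are 0.144 and 0.319.

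The large and the small subunit lay close together. Of 46 large subunit genes 43 were above 0 and 8 had an unadjusted p under 0.05, with a median of 0.20 (1.15-fold). Of 24 small subunit genes 23 were above 0 and 3 had an unadjusted p under 0.05, with a median of 0.25 (1.19-fold). These are 17.4% and 12.5% of the subunits' genes, all of them higher, beside 4.43% of all tested genes. Without the 4 high-Malat1 controls 29 of 46 large and 17 of 26 small subunit genes were above 0, the medians were 0.0587 and 0.11, and 0 of either subunit were higher at an unadjusted p under 0.05. Over all 10 kidneys the large minus small difference of the medians was -0.05. Mrps30 and Mrps18a sit in the large subunit of the assembled mammalian particle despite their names, and with them counted there the medians were 0.21 for 48 large and 0.25 for 22 small subunit genes. Proteins with a bacterial counterpart numbered 44, of which 41 were above 0 and 9 had an unadjusted p under 0.05 (median 0.23). Of the 26 proteins that mitochondria added, 25 were above 0 and 2 had an unadjusted p under 0.05 (median 0.22).

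The mean log2 normalized CPM over the genes of a subunit shows which kidneys carried the difference. Over the 46 large subunit genes it was 5.55, 5.81, 5.50, 5.53, 5.43 and 5.81 in control kidneys 1 to 6, and 5.87, 5.74, 5.90 and 5.80 in rilmenidine kidneys 1 to 4. Over the 24 small subunit genes it was 5.27, 5.36, 5.07, 5.17, 5.00 and 5.37 in the controls, and 5.51, 5.36, 5.58 and 5.42 with rilmenidine. Control kidneys 2 and 6 were at the level of the rilmenidine kidneys, and control kidneys 1, 3, 4 and 5, those with high Malat1, were below all of them, so the groups overlapped through control kidneys 2 and 6. The large subunit mean was 5.61 ± 0.161 (SD, n = 6) in controls and 5.83 ± 0.0715 (SD, n = 4) with rilmenidine, a difference of 0.22. The small subunit mean was 5.21 ± 0.152 (SD, n = 6) and 5.47 ± 0.0953 (SD, n = 4), a difference of 0.26. Both differences exceeded the pooled SD, which was 0.135 and 0.134. The gap between the subunits was 0.40 ± 0.0642 in controls and 0.36 ± 0.0255 with rilmenidine, and this change of -0.04 was smaller than the pooled SD of 0.0531. The part of Malat1 and of depth in these values was not tested beyond the fits without those kidneys and with each as a covariate, where 0 genes had an unadjusted p under 0.05 in the higher direction and the median of all 70 was 0.07 with Malat1 and 0.145 with library size. Few genes of any kind were higher in these covariate fits, 1.49% of all tested genes with Malat1 and 2.17% with library size.

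**Figure D2:**
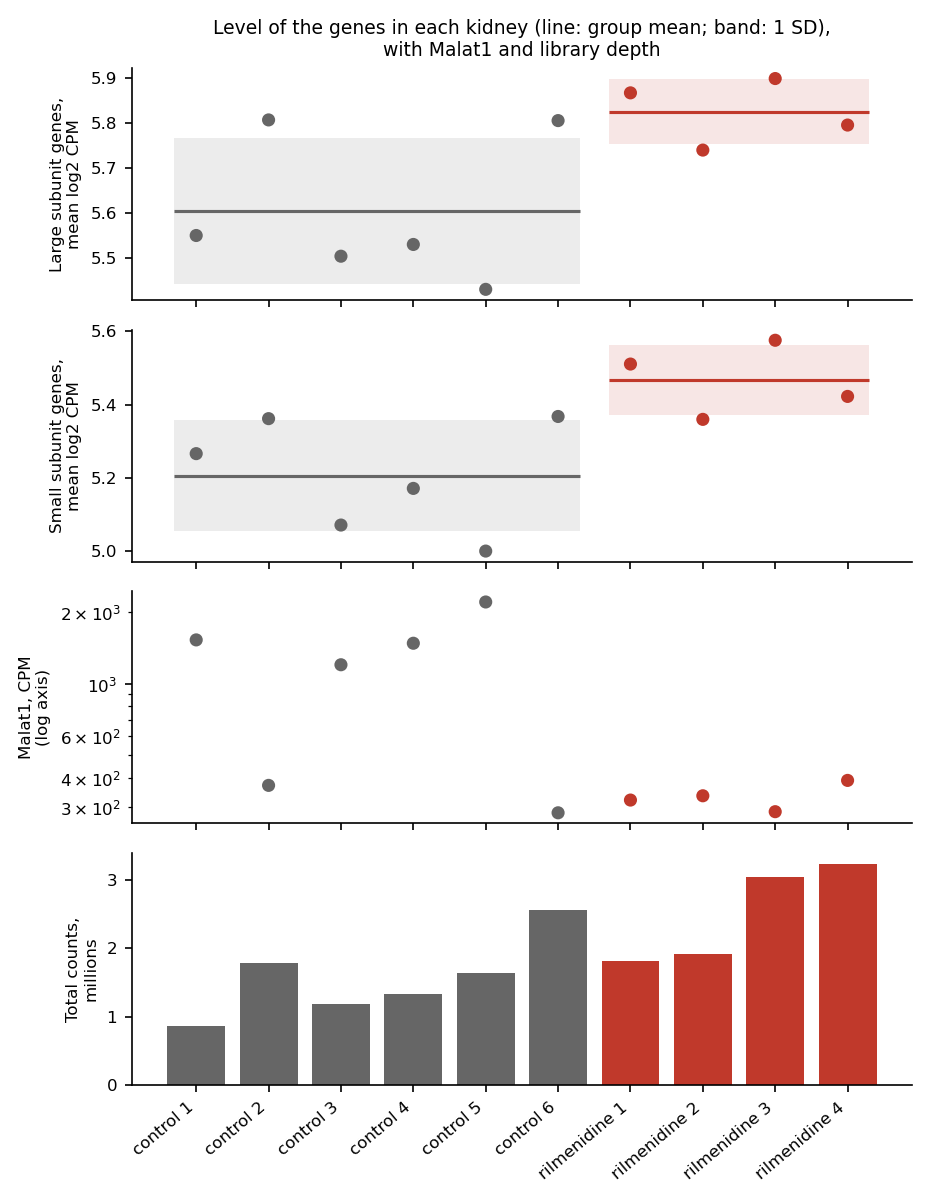
Mean log2 normalized CPM of the large and small subunit genes (upper 2 panels), Malat1 in CPM on a log axis and total counts (lower 2 panels) in each kidney, with lines for group means and bands of 1 SD. Control kidneys 1, 3, 4 and 5 combine the lowest subunit means with Malat1 of 1200 to 2209 CPM, and control kidneys 2 and 6 resemble the 4 rilmenidine kidneys in both.

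Gene by gene, all 4 rilmenidine kidneys were above the control median, which the high-Malat1 controls help to set, in 36 of the 70 genes (51.4%, against 15.7% of all tested genes), 3 of 4 in 20, 2 of 4 in 12, 1 of 4 in Mrps5 and 0 of 4 in Mrpl49. Control kidney 5 gave the lowest value of all 10 kidneys in 23 genes, control kidney 4 in 17, control kidney 3 in 15 and control kidney 1 in 13, while the highest value came from rilmenidine kidney 1 in 20, rilmenidine kidney 3 in 20 and control kidney 2 in 13 genes. Of all counts in a library, the 77 genes took 0.339% to 0.418% in controls and 0.383% to 0.432% with rilmenidine. All rilmenidine kidneys were above all control kidneys in only 2 genes, Mrpl35 and Mrpl36, and in 0.796% of all tested genes. They were below all control kidneys in 0 of the 70 and in 0.875% of all tested genes. Between control kidneys the genes varied by a median SD of 0.27 on the log2 scale, from 0.0951 for Mrpl42 to 1.1 for Mrpl24, compared with 0.329 for all tested genes. The standard errors of the fold changes ran from 0.114 to 0.487 with a median of 0.168, and 51 of the 70 fold changes (72.9%) were larger in size than their standard error, against 42.9% over all tested genes.

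Around the decoding site of the small subunit, Mrps12 had the largest fold change of all the genes. It encodes the protein that lies at the decoding centre, where codon and anticodon pair. In controls it ran from 20.2 to 46.0 normalized CPM with a median of 40.1, and it was 54.5, 40.2, 66.1 and 49.3 in rilmenidine kidneys 1 to 4. The low end came from control kidney 5, and rilmenidine kidney 2 lay inside the control range. The means were 37.6 ± 9.80 (SD, n = 6) and 52.5 ± 10.8 (SD, n = 4), a log2 fold change of 0.49 with an SE of 0.204 and an edgeR adjusted p of 0.400. Without the 4 high-Malat1 controls it was 0.257.

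Mrps7, which binds the RNA of the head of the small subunit, had the smallest p. Control kidneys ran from 110 to 136 normalized CPM (median 119), and rilmenidine kidneys gave 140, 134, 203 and 172. Rilmenidine kidneys 1, 3 and 4 were above every control, and rilmenidine kidney 2 was just below the highest. The means were 122 ± 11.7 (SD, n = 6) and 162 ± 32.0 (SD, n = 4), and the log2 fold change of 0.41 (SE 0.137) had an edgeR adjusted p of 0.303. Mrps7 lies at chr11:115603925-115608036 (GENCODE M21, GRCm38), where its exons overlap those of Gga3 and Mif4gd on the opposite strand by 127 and 119 bases, and since the strand setting of the counting is not given its counts may include theirs. Without the 4 high-Malat1 controls it was 0.321.

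Mrps15, a protein bound to the RNA of the small subunit's body, ran from 34.1 to 46.8 normalized CPM in controls (median 38.2) and was 48.1, 44.5, 53.9 and 55.0 with rilmenidine. Only control kidney 4 reached into the rilmenidine range. Its log2 fold change was 0.38 (SE 0.141, edgeR adjusted p 0.343) and 0.346 without the 4 high-Malat1 controls. Mrps2 (0.37), Mrps28 (0.36) and Mrps22 (0.35), of which Mrps22 has no bacterial counterpart, followed with unadjusted p values of 0.0532, 0.0656 and 0.0569, and were at 0.226, 0.275 and 0.166 without the 4 high-Malat1 controls. At the other end, Mrps11 was at 0.13 and Mrps5, the only small subunit gene below 0, at -0.07 with an SE of 0.206. Mrps11 shares 173 exon bases with Mrpl46, which lies head to head with it on the opposite strand and was at 0.36. The sign of Mrps11 and Mrps5 changed with the setting, as did that of Mrpl3, Mrpl12, Mrpl24, Mrpl44 and Mrps18a below.

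In the large subunit, Mrpl36 had the smallest p and groups that did not overlap. It encodes one of the smallest proteins of the subunit and lies at chr13:73328513-73332178, with 30 exon bases shared with Ndufs6 on the opposite strand. Control kidneys ran from 50.3 to 66.2 normalized CPM (median 60.9), and rilmenidine kidneys were 76.0, 75.5, 75.9 and 71.8. The means were 59.2 ± 6.48 (SD, n = 6) and 74.8 ± 1.99 (SD, n = 4), with a log2 fold change of 0.34, an SE of 0.127 and an edgeR adjusted p of 0.349. It was 0.231 without the 4 high-Malat1 controls. Mrpl35, named because its groups did not overlap either, was at 61.4 to 74.1 in controls (median 70.1) and at 77.7, 79.3, 80.8 and 76.5 with rilmenidine. Its gap was narrow, and its log2 fold change of 0.19 (SE 0.119) had an edgeR adjusted p of 0.603.

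The stalk of the large subunit, which recruits translation factors, is built on Mrpl10 and Mrpl12 beside Mrpl11. Mrpl10 was at 44.9 to 62.9 normalized CPM in controls (median 55.1) and at 85.8, 60.8, 63.7 and 75.3 with rilmenidine, with a log2 fold change of 0.37 (SE 0.147, edgeR adjusted p 0.379) that was 0.195 without the 4 high-Malat1 controls. Mrpl12 was at 50.3 to 91.7 in controls (median 57.8) and at 91.0, 72.2, 91.7 and 79.0 with rilmenidine. Control kidneys 2 and 6 were at 91.7 and 90.9 and the other controls at 50.3 to 60.6, and its log2 fold change of 0.30 (SE 0.183) became -0.128 without the 4 high-Malat1 controls. Mrpl11 was at 0.17 (SE 0.170), at 0.156 without the 4 high-Malat1 controls and at 0.0553 without rilmenidine kidney 2. None of these 3 stalk genes passed the adjusted test.

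Mrpl45, known for holding the ribosome to the inner membrane next to the exit of the nascent chain, was at 63.9 to 92.4 normalized CPM in controls (median 77.1) and at 136, 90.1, 96.2 and 89.6 with rilmenidine. Rilmenidine kidney 1 stood far above the other 3, and without it the log2 fold change of 0.38 (SE 0.157) was 0.224. It was 0.15 without the 4 high-Malat1 controls. Mrpl14, at the face that joins the small subunit, was at 88.4 to 180 in controls (median 113) and at 195, 152, 149 and 141 with rilmenidine, the control value of 180 being that of kidney 2. Its log2 fold change of 0.42 (SE 0.177), the highest in the large subunit, was 0.0744 without the 4 high-Malat1 controls. Mrpl34 was at 98.3 to 134.5 in controls (median 110) and at 154, 141, 129 and 132 with rilmenidine, with a log2 fold change of 0.30 (SE 0.122) that was 0.136 without the 4 high-Malat1 controls. Mrpl30 was at 0.36 (SE 0.153), with 39.3 to 62.8 in controls and 67.3, 60.8, 61.6 and 65.0 with rilmenidine, and at 0.0574 without the 4 high-Malat1 controls. Mrpl43 (0.33, unadjusted p 0.0354) and Mrpl21 (0.34, unadjusted p 0.0478) complete the 8 large subunit genes, and both were named after their values were seen.

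**Figure D3:**
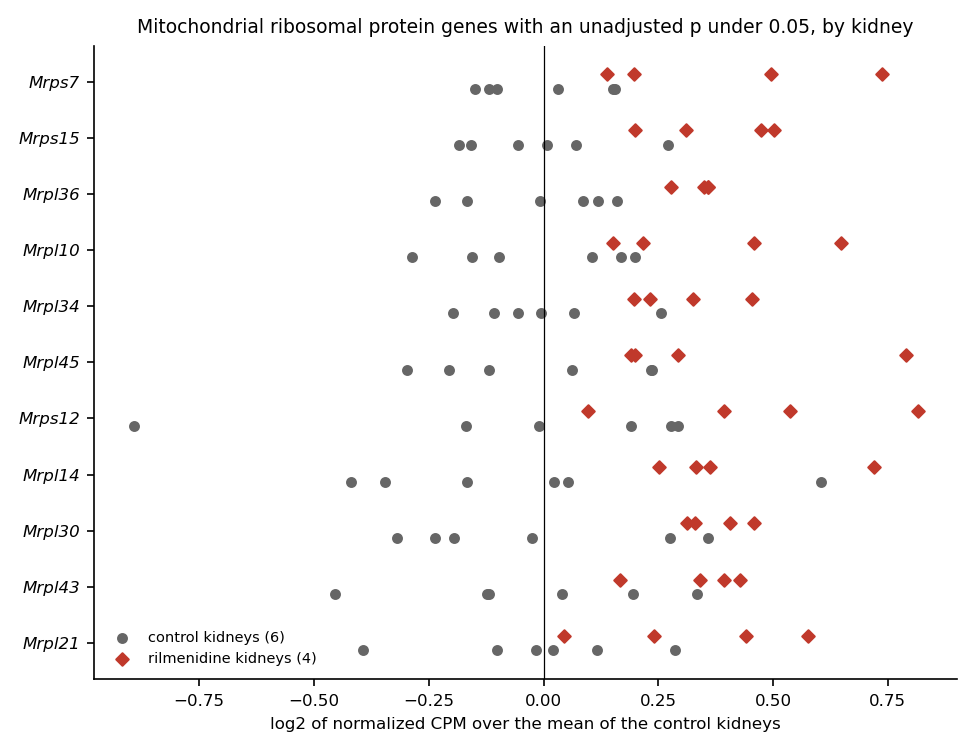
Values of the 11 genes with an unadjusted p under 0.05 in every kidney, as the log2 of the normalized CPM over the mean of the 6 control kidneys. Grey circles are control and red diamonds are rilmenidine kidneys. The groups are separate only for Mrpl36, and in Mrps12 control kidney 5 lies far below the other controls.

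Further genes were named for their roles, whatever their values. Mrpl3, which reaches towards the peptidyl transferase centre, was at 0.08 (SE 0.193) and Mrpl44, a relative of RNase III, at 0.06 (SE 0.155). Mrpl58, a peptidyl-tRNA hydrolase built into the large subunit, was at 0.17 (SE 0.160) and at 0.0201 without the 4 high-Malat1 controls. Of the 3 Mrps18 relatives, Mrps18a was at 0.20 (SE 0.205) and Mrps18c at 0.24 (SE 0.225), whereas Mrps18b did not pass the filter. Mrps30, also known as a programmed cell death protein, was at 0.28 (SE 0.196).

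Below 0 in the large subunit were Mrpl49, Mrpl24 and Mrpl47. Mrpl49, which has no bacterial counterpart, was at 27.5 to 46.8 normalized CPM in controls (median 37.4) and at 27.8, 36.9, 29.7 and 33.4 with rilmenidine, so no rilmenidine kidney reached the control median. Its log2 fold change was -0.22 (SE 0.168, edgeR adjusted p 0.688). Mrpl24 rested on 1 to 21 counts per kidney and gave -0.12 with an SE of 0.487, which became 0.323 without control kidney 1. Mrpl47, named after its value was seen, was at -0.09 (SE 0.196).

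Some counts depend on neighbours or copies. Exons of 29 tested genes overlapped those of another gene, and 12 tested genes had a stretch of at least 200 bases that was at least 97% identical to another gene's transcript. Among the 41 genes with no exon overlap 40 were above 0 and 5 (12.2%) had an unadjusted p under 0.05 (median 0.21). Among the 29 with an exon overlap it was 26 and 6 (20.7%, median 0.24). Among the 58 with no such copy 55 were above 0 and 10 (17.2%) had an unadjusted p under 0.05 (median 0.23). Among the 12 with a copy it was 11 and 1 (8.33%). All of these were higher, beside 4.43% of all tested genes, of which 50.3% were above 0.

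Other genes of mitochondrial translation were read from hand-written lists, whose counts stand beside 4.43% higher and 6.13% lower genes among all tested genes. Of the mitoribosomal proteins with other symbols, 5 of 5 were above 0 and 1 had an unadjusted p under 0.05, with a median of 0.29. Their mean log2 normalized CPM overlapped between the groups, at 3.78 to 4.92 in controls and 4.51 to 4.83 with rilmenidine. The 5 genes include Aurkaip1 at 0.36 (unadjusted p 0.0253) and Dap3, a GTP-binding protein of the small subunit, at 0.29 (unadjusted p 0.12). Of 23 tested assembly factors 17 were above 0, 1 was higher and 0 were lower at an unadjusted p under 0.05, with a median of 0.13. Eral1, the GTPase that chaperones the small ribosomal RNA, was at 0.52 (unadjusted p 0.0286), and Malsu1, which binds Mrpl14 and keeps the subunits apart, was at 0.34 (unadjusted p 0.078).

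Of 14 translation factors 8 were above 0, with 1 higher and 1 lower at an unadjusted p under 0.05 a median of 0.02 and a range of -0.65 to 0.30. Guf1, a GTPase related to the bacterial factor LepA, was at -0.65 (unadjusted p 0.00866) and Slirp, which keeps mitochondrial messages stable, at 0.25 (unadjusted p 0.0386). The list of 17 mitochondrial aminoacyl-tRNA synthetase genes also held Gatb, Gatc and Qrsl1, which encode subunits of an amidotransferase. Of the 17 genes 10 were above 0, with 1 higher (Gatb) and 0 lower, a median of 0.03 and a range of -0.31 to 0.42. Gatb, a subunit of the enzyme that makes glutaminyl-tRNA, was at 0.42 (unadjusted p 0.0253), and its partner Qrsl1 was at -0.31 (unadjusted p 0.0756). The list of mitochondrial transcription held 6 genes, with Twnk and Ssbp1 of mitochondrial DNA replication among them. Of these 6 genes 3 were above 0, 0 were higher and 1 was lower, with a median of -0.11. Tfam was at 0.12, Tfb2m at 0.24, Tefm at 0.02 and Twnk at -0.24. The RNA polymerase Polrmt was at -0.44 (unadjusted p 0.0312), and the single-stranded DNA binding protein Ssbp1 was at -0.30 (unadjusted p 0.18).

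The products of the mitochondrial ribosome and the proteins of its cytosolic counterpart give the nearest comparisons. Of the 13 mitochondrially encoded protein genes 8 passed the filter, 6 were above 0, and 0 had an unadjusted p under 0.05 in either direction, with a median of 0.07. Why the others did not pass was not tested, so the 8 stand for a part of these genes only. The complex I genes mt-Nd1 and mt-Nd5 were at 0.23 (unadjusted p 0.264) and -0.14 (unadjusted p 0.471). Of 62 tested cytosolic ribosomal protein genes 50 were above 0, 24 were higher (38.7%, against 4.43% of all tested genes) and 1 was lower at an unadjusted p under 0.05, with a median of 0.27. These 62 were taken by symbol, which also drew in Rps19bp1 (0.27) and Rpl7l1 (0.09), neither with an unadjusted p under 0.05. Rplp1, of the cytosolic stalk, was at 0.55 (unadjusted p 0.000677) and Rps14 at 0.56 (unadjusted p 0.0056). No gene of these lists passed the adjusted test, the smallest adjusted p being 0.211 for Rplp1. Without the 4 high-Malat1 controls the median of the cytosolic ribosomal protein genes was 0.0853, that of the assembly factors was -0.0162, and that of the mitochondrially encoded genes was 0.107. The differences between lists were not tested.

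**Figure D4:**
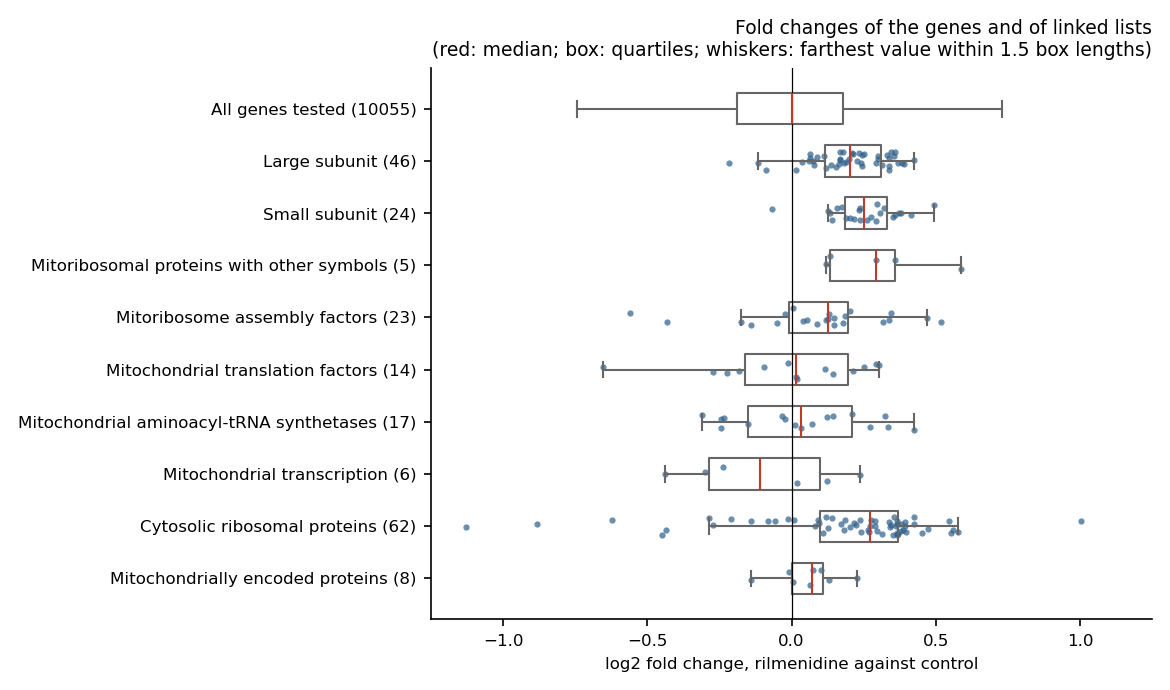
Log2 fold changes of all 10055 tested genes, of the large and small subunit genes and of the linked lists, with the number of tested genes in brackets. Boxes span the quartiles with the median in red, whiskers reach the farthest value within 1.5 box lengths, and points are genes. Both subunits, the mitoribosomal proteins with other symbols and the cytosolic ribosomal proteins have medians of 0.20 to 0.29, and the other lists have medians of -0.11 to 0.13.

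A few markers of nephron segments had small unadjusted p values, and none passed the adjusted test. Of 38 markers in 10 cell type lists 33 were tested, with 5 higher and 1 lower at an unadjusted p under 0.05, when 4.43% of all tested genes were higher and 6.13% lower. Without the 4 high-Malat1 controls, 5 of 35 tested markers were higher and 5 lower, when 1.57% and 1.65% of all tested genes were. The 5 higher were the 4 thick ascending limb markers and Aqp2, and the 5 lower were Pvalb, Plvap and the 3 red cell genes. Among 4 thick ascending limb markers, whose summed level was 1200 to 2090 CPM in controls and 1530 to 2600 CPM with rilmenidine, Umod was at 0.61 (unadjusted p 0.00237) and Egf at 0.42 (unadjusted p 0.023), while Slc12a1 was at 0.08 (unadjusted p 0.732). Without the 4 high-Malat1 controls, Slc12a1 was at 0.785, Umod at 0.745, Egf at 0.507 and Cldn16, with 1 to 37 counts per kidney, at 1.47. The 3 principal cell markers summed to 117 to 157 CPM in controls and 159 to 192 CPM with rilmenidine, with Aqp2 at 0.58 (unadjusted p 0.00134) and Aqp3 at 0.34 (unadjusted p 0.0393) but Scnn1g at 0.11 (unadjusted p 0.599). The 3 distal convoluted tubule markers summed to 769 to 1250 CPM and 551 to 936 CPM, with Slc12a3 at -0.55 (unadjusted p 0.00922). The 7 proximal tubule markers summed to 43800 to 56500 CPM and 44900 to 65700 CPM, with Miox at 0.39 (unadjusted p 0.0467). The other proximal tubule markers ran from -0.18 (Slc22a6) to 0.26 (Kap), with Slc34a1 at -0.04 and Lrp2 at -0.01. Summed levels ran from 91.7 to 169 CPM in controls and 86.5 to 177 CPM with rilmenidine for intercalated cells, from 48.7 to 85.7 and 57.9 to 78.3 for podocytes, from 145 to 268 and 212 to 240 for endothelial cells, from 39.6 to 169 and 94.1 to 106 for immune cells and from 901 to 7310 and 2510 to 3490 for red cells. The 4 liver genes summed to 1710 to 2640 and 1510 to 2580 CPM, nearly all of it Cyp2e1, which kidney also expresses. None of the lists had all markers at 0. The part of cell composition in the levels of the mitochondrial ribosomal protein genes was not tested.

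The medians of both subunits stayed above 0 under every setting tried, but their size depended on the libraries. The libraries also differed in reads on olfactory and vomeronasal receptor genes, from 4.27 to 436 CPM. In the kidneys with at least 10 CPM on them, 5 control and 2 rilmenidine, the median was 0.245 and 6 genes had an unadjusted p under 0.05. All 6 were higher, as were 4.36% of all tested genes. The small subunit median was above the large subunit median in each setting, the large minus small difference being -0.102 to -0.0233.

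**Figure D5:**
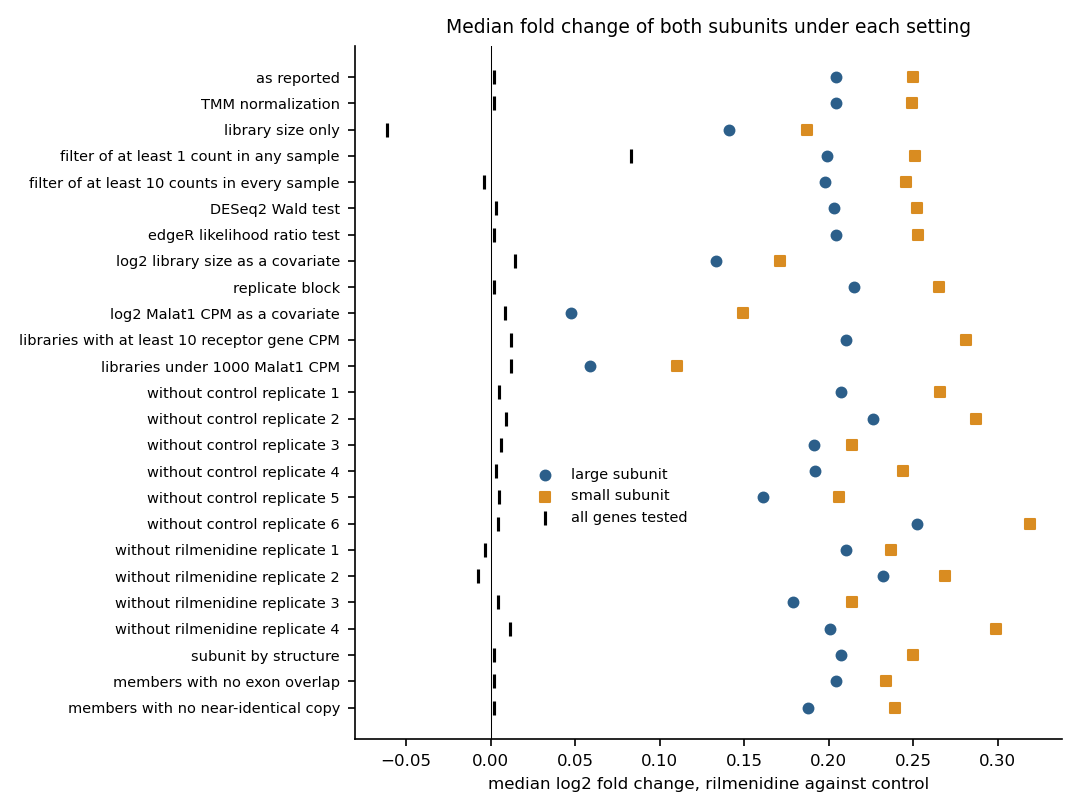
Median log2 fold change of the large (circles) and small (squares) subunit genes and of all tested genes (bars) under each setting. The lowest large subunit medians, 0.0476 and 0.0587, come with Malat1 as a covariate and without the 4 high-Malat1 controls, and without 1 kidney at a time they range from 0.161 to 0.252.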

How the data were processed

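Kidney RNA from 6 control and 4 rilmenidine mice was sequenced after a library protocol that reads transcript ends, and the authors deposited raw counts per Ensembl gene. The submitters' processing notes name bcl2fastq 1.8.4, Trimmomatic 0.32, STAR 2.5.2b, featureCounts 1.5 and the build mm10. The strand setting, the annotation release and the treatment of molecular identifiers and multi-mapping reads are not given in the sources used here, and uncollapsed duplicates would make counts overstate molecules. The study's methods name 8 control kidneys, of which 6 are labelled here. Groups and replicate numbers come from the labels.

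Gene symbols and positions were taken from GENCODE M21 (GRCm38), in which 42548 of 43629 genes were found. The 10055 genes with 6 or more reads in 7 or more of the 10 kidneys were normalized by RLE and tested over all 10 kidneys with edgeR 4.0.16 (R 4.3.3, quasi-likelihood, two-sided, Benjamini-Hochberg). Normalized CPM are counts scaled by library size and RLE factor, with 2 added as prior count before taking log2. Near-identical copies were found with blastn 2.17.0. No library pair of 45 agreed within sampling noise (chi-square per degree of freedom of at least 2.9).

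The gene set, the linked lists and the marker lists were chosen with earlier results of these data known. Named genes were, by rule, the 6 smallest p, the 2 lowest and the 1 highest fold change in each subunit, 14 genes by role, all genes that did not pass the filter, and the 2 smallest p of each linked list. The alternatives were TMM, library size, other filters, DESeq2 1.42.0, the likelihood ratio test, covariates, a replicate block, subsets of libraries, and other subunit or gene choices. Leaving out genes with near-identical copies and leaving out control kidneys 1, 3, 4 and 5 were chosen after seeing the data. Intervals and floors cover counting error only.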

Additional observations from a re-analysis of the deposited data

Results flagged for a closer look

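Single kidneys stood apart from their group in 3 of the 54 groups of values checked with Dixon's criterion, which chance alone gives in about 1 of 20 groups. Mrpl36 was at 71.8 normalized CPM in rilmenidine kidney 4, below 75.5 to 76.0 in the other 3. Mrpl45 was at 136 normalized CPM in rilmenidine kidney 1, above 89.6 to 96.2 in the other 3. Mrps22 was at 26.6 normalized CPM in control kidney 3, below 41.6 to 50.7 in the other 5.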

How the results depend on the processing

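Under TMM, stricter or looser filters, DESeq2 and the likelihood ratio test the counts and medians of the 70 genes stayed within 1.5 times or 1 SD of the reported values. In every setting 0 of the mitochondrial ribosomal protein genes passed the adjusted test. Over all tested genes, 241 passed with the filter of at least 1 count, 60 with DESeq2 and 44 with the likelihood ratio test. Without control kidney 2, control kidney 6 or rilmenidine kidney 1 it was 33, 37 and 6, and with the replicate block 3. The count at an unadjusted p under 0.05 was 6 with library size alone, 6 in the 7 libraries with most reads on receptor genes and 5 (with 40 above 0) among the 41 genes with no exon overlap. It was 0 with library size as a covariate and 0 with Malat1 as a covariate, when 2.17% and 1.49% of all tested genes were higher. With library size alone and in the 7 libraries named, 2.56% and 4.36% of all tested genes were higher. In the reported fit, from which the 41 genes were taken, it was 4.43%. Leaving out 1 kidney at a time the count ranged from 5 to 17. All tested genes gave 3.02% higher at the count of 5, and 6.03% and 6.44% at the counts of 17. With Malat1 as a covariate the medians were 0.0715 for all, 0.0476 for the large subunit (large minus small -0.102), 0.0761 for cytosolic ribosomal proteins and -0.0545 for assembly factors, the last being 0.000939 with library size as a covariate. Without control kidneys 1, 3, 4 and 5 the count was 0 higher and 1 lower, and the medians were 0.0661 for all, 0.0587 for the large subunit, 0.11 for the small subunit, -0.0162 for assembly factors, -0.0716 for aminoacyl-tRNA synthetases and 0.0853 for cytosolic ribosomal proteins. The cause was not tested.

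With a replicate block for the shared replicate numbers the count was 6, when 3.73% of all tested genes were higher. The numbers share only a number, as same-numbered kidneys correlated at -0.0768 to 0.0775 and 0 of 4 rilmenidine kidneys correlated best with their own number, and no other call among these genes changed under the block.

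Signs changed for 7 named genes. With Malat1 as a covariate the log2 fold changes were -0.109 for Mrpl12, 0.363 for Mrpl24, -0.107 for Mrpl3, -0.024 for Mrpl44, -0.121 for Mrps11 and -0.0974 for Mrps18a. Without control kidneys 1, 3, 4 and 5 they were -0.128, 0.429, -0.0616, -0.0193, -0.163 and -0.0955 for the same genes. With library size as a covariate they were 0.526 for Mrpl24, -0.0571 for Mrps11 and 0.0132 for Mrps5, with library size alone -0.00116 for Mrpl44, and in the 7 libraries with most reads on receptor genes -0.151 for Mrps11 and 0.247 for Mrps5. Leaving out 1 kidney at a time gave -0.328 to 0.323 for Mrpl24, -0.0126 to 0.218 for Mrpl3, -0.0134 to 0.149 for Mrpl44, -0.0281 to 0.258 for Mrps11 and -0.252 to 0.0394 for Mrps5. With 6 and 4 kidneys and a median of 82 counts, the median standard error of 0.168 limits what a single gene can show.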

Other observations

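Of the 5 symbols that match the gene rule but are no protein-coding genes, both pseudogenes of Mrps36 passed the filter. Mrps36 counts as small subunit here by its symbol only. Its protein has been found in the oxoglutarate dehydrogenase complex, and it was given no subunit by structure. Mrps36 had 1 to 13 counts per kidney, while Mrps36-ps1 had 5 to 31 and Mrps36-ps2 8 to 45 counts. The pseudogenes had log2 fold changes of 0.42 (unadjusted p 0.141) and 0.02 (unadjusted p 0.924). Which of the 3 loci the reads came from was not tested.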
